A study of Homo sapiens with 12 samples.

Results

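The change brought by compound #57, an inhibitor of the phosphatase SHP2, was measured in cells that also received AZD8055, which blocks the kinase mTOR. The libraries of AZD8055 + compound #57 (combination) were set against those of AZD8055 alone within each cell line, which takes 6 of the 12 libraries of the series and all 11548 genes of its table. The RNA came from Hep3B, Huh7 and MHCC97H, 3 established human hepatocellular carcinoma (HCC) cell lines that the labels give as wild type. Each line was sequenced untreated, with AZD8055, with compound #57 and with the combination, with 1 library per line and treatment. AZD8055 was given at 100 nM and, in the combination, compound #57 at 5 µM. Exposure lasted 48 h in Hep3B and Huh7 and 24 h in MHCC97H, so that a difference of MHCC97H from the other lines and a difference in time cannot be told apart. The libraries compared held 11619304 to 14246335 reads. Levels are given as normalised read counts, which are reads scaled to 10000000 per library, and changes as the log2 difference between the combination and AZD8055, so that -1 stands for a 2-fold lower and 1 for a 2-fold higher level.

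All 12 marker genes of hepatocytes and HCC on the list used were in the table, and their summed normalised read count was 266300 with AZD8055 and 312600 with the combination in Hep3B, 381700 and 424000 in Huh7, and 61320 and 58410 in MHCC97H. Of 6 immune markers only LYZ was in the table, of 3 endothelial markers only PECAM1, and of 6 fibroblast and stellate cell markers only COL1A1 and COL1A2, and the defining genes PTPRC, CDH5 and DCN were not among the genes analysed. LYZ stood at 381 and 31.6 in Hep3B, 1541 and 523 in Huh7, and 4.91 and 4.05 in MHCC97H, PECAM1 at 5.73 and 8.91, 9.14 and 4.30, and 368 and 460.4, and both collagens together at 42.5 and 174, 1620 and 1318, and 14.0 and 24.3. In cultures read in bulk, fewer cells with a transcript and less of it per cell cannot be told apart.

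SHP2, encoded by PTPN11, is recruited to activated receptor tyrosine kinases and their adaptors and helps to load RAS with GTP, which starts the RAF, MEK and ERK kinase cascade. ERK induces transcription factors of the ETS and immediate early classes, and with them the phosphatases and adaptor proteins that switch the cascade off again, of which DUSP6 and the Sprouty proteins are known examples. mTOR inhibition relieves feedback on receptor signalling upstream of RAS, and this is the setting in which the SHP2 inhibitor was added.

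No gene passed a Benjamini-Hochberg adjusted p of 0.05 in the limma fit with the 3 cell lines as replicates (0 of 11548 genes, 0%), in either direction. The smallest adjusted p was 0.121, and voom on the whole reads behind the values also called 0 genes. At an unadjusted p under 0.05, 599 genes were lower (5.19%) and 1074 higher (9.30%) with the combination. The median change of all genes was 0.02, 0.04 and 0.04 in Hep3B, Huh7 and MHCC97H, and with each library centred on its median, 876 genes were lower and 826 higher. When MHCC97H was left out, 3 genes passed the adjusted threshold, namely ITGA2 (-2.41), ATP2B2 (-2.26) and TACC1 (-1.55, adjusted p = 0.0431 for each, limma), and 0 passed without Hep3B or without Huh7. The count at an unadjusted p under 0.05 was 838 without Hep3B, 838 without Huh7 and 2380 without MHCC97H. For a single gene the 95% confidence interval of the change over the lines reached 0.41 to either side at the median. Within a line there is no replicate, and the intervals given for a line are 95% Clopper-Pearson intervals of the ratio of reads, which cover counting error only.

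Hep3B held the widest changes and MHCC97H the narrowest, with standard deviations over genes of 0.64, 0.51 and 0.44 in Hep3B, Huh7 and MHCC97H. At least 2-fold lower were 385 genes in Hep3B (3.33%), 213 in Huh7 (1.84%) and 131 in MHCC97H (1.13%). At least 2-fold higher were 662 genes in Hep3B (5.73%), 462 in Huh7 (4.0%) and 325 in MHCC97H (2.81%). The same direction in all 3 lines was found for 1885 genes that were lower (16.3%) and 2742 that were higher (23.7%), and with libraries centred on their medians for 2329 and 2303. Only 19 genes were at least 2-fold lower in every line (0.165%) and 29 at least 2-fold higher (0.251%), which became 21 and 17 with libraries centred. Across genes, which are not independent of each other, the changes correlated with Spearman's rho of 0.37 between Hep3B and Huh7, 0.26 between Hep3B and MHCC97H and 0.21 between Huh7 and MHCC97H over the 11548 genes.

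DUSP6, SPRY4, SPRY1, ETV1, ETV4 and ETV5, which ERK is known to induce, were among the genes that were lower in all 3 lines by the widest margin. Among genes with at least 20 reads in the higher library of each pair, the 12 whose least negative difference was farthest below 0 were DUSP6, ETV4, ETV5, SPRY4, ETV1, NT5E, NKD1, ITGA2, UBASH3B, RASSF9, SPRY1 and PLXNA2. DUSP6 (12:89347235-89352501, minus strand, hg38) encodes the phosphatase that removes the activating phosphates from ERK. Its normalised read count was 609 with AZD8055 and 64.8 with the combination in Hep3B, 1295 and 292 in Huh7, and 3519 and 745 in MHCC97H. Every combination library was below the AZD8055 library of its line, although the 745 of MHCC97H still exceeded the AZD8055 level of Hep3B. The log2 changes were -3.21, -2.15 and -2.24, with counting intervals of -3.58 to -2.90, -2.32 to -1.98 and -2.34 to -2.14, and limma gave -2.53 (SE 0.70, adjusted p = 0.205).

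SPRY4 (5:142310427-142326455, minus strand) and SPRY1 (4:123396795-123403760, plus strand) encode Sprouty proteins, which hold back signalling from receptor tyrosine kinases to RAS. SPRY4 stood at 874 with AZD8055 and 62.4 with the combination in Hep3B, 805 and 82.6 in Huh7, and 349 and 107 in MHCC97H. SPRY1 stood at 361 with AZD8055 and 32.4 with the combination in Hep3B, 186 and 53.4 in Huh7, and 419 and 193 in MHCC97H. The changes of SPRY4 were -3.79, -3.27 and -1.70 and those of SPRY1 -3.44, -1.78 and -1.11, and both were farthest below 0 in Hep3B and nearest to it in MHCC97H. In the limma fit SPRY4 differed by -2.92 (SE 1.09, adjusted p = 0.279) and SPRY1 by -2.11 (SE 0.60, adjusted p = 0.215).

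ETV1 (7:13891229-13991425), ETV4 (17:43527844-43579620) and ETV5 (3:186046314-186110318), all on the minus strand, make up the PEA3 group of ETS transcription factors. ETV4 had a normalised read count of 658 with AZD8055 and 23.5 with the combination in Hep3B, 935 and 235 in Huh7, and 779.9 and 144 in MHCC97H. ETV5 had 389 with AZD8055 and 44.6 with the combination in Hep3B, 736 and 222 in Huh7, and 963 and 282 in MHCC97H. ETV1 had 419.6 with AZD8055 and 47.8 with the combination in Hep3B, 162 and 56.8 in Huh7, and 194 and 42.1 in MHCC97H. In each of the 3 genes the combination and AZD8055 levels did not overlap across the lines, but the genes were picked for a wide change in every line. How many of all genes part in this way was not counted. limma gave -3.06 (SE 0.65, adjusted p = 0.161) for ETV4, -2.20 (SE 0.80, adjusted p = 0.275) for ETV5 and -2.26 (SE 0.38, adjusted p = 0.145) for ETV1, the last among the 5 lower genes with the smallest p.

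**Figure D1:**
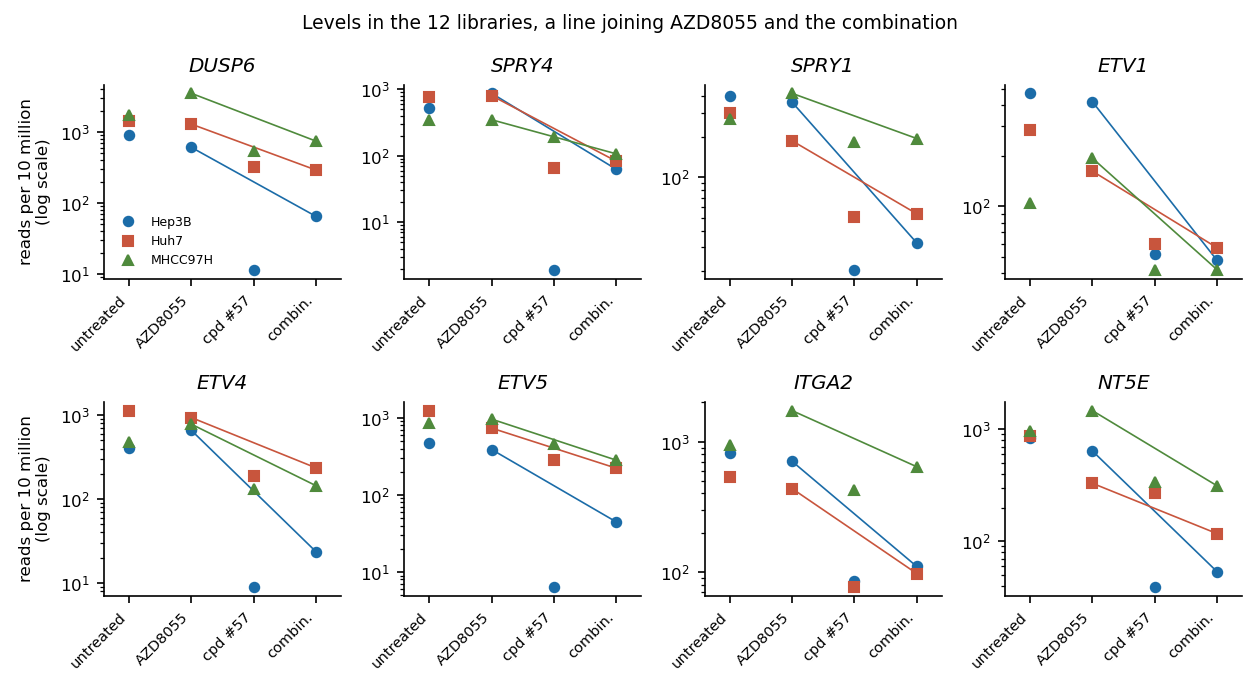
Normalised read counts (reads per 10000000, log axis) of 8 genes in the 12 libraries, by cell line and treatment, with a line joining AZD8055 to the combination. In DUSP6, SPRY4, SPRY1, ETV1, ETV4, ETV5, ITGA2 and NT5E the joining line runs down in Hep3B, Huh7 and MHCC97H alike.

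The 250 bases before the RefSeq start site (GRCh38.p14) of 3 genes of this group are printed here because these genes were lower together in every line and ETV1, ETV4 and ETV5 are ETS factors themselves. Capitals mark CCGGAA, a sequence that ETS factors bind, in either orientation. The DUSP6 stretch is chr12:89352502-89352751, that of SPRY4 chr5:142324248-142324497 and that of ETV1 chr7:13990703-13990952, all read on the minus strand from 5′ to 3′.
DUSP6: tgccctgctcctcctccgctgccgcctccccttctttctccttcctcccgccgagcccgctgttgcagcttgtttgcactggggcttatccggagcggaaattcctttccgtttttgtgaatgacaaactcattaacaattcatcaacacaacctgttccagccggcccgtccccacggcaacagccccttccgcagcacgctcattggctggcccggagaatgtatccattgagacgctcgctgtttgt
SPRY4: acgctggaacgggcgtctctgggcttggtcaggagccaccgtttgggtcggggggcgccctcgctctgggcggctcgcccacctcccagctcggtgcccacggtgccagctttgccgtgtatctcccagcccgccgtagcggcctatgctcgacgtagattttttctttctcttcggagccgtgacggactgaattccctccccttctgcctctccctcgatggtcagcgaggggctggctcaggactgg
ETV1: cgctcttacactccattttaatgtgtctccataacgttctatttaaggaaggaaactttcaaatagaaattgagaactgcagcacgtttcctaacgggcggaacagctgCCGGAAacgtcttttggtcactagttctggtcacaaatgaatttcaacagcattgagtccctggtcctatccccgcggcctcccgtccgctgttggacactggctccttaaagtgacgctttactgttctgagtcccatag
CCGGAA stands once in the ETV1 stretch, with its leading base 141 bases before the start, and in neither of the other stretches. The stretches of SPRY4 and ETV1 lie inside the gene spans given above, which reach farther upstream. Other start sites of these genes were not searched. In windows of 300 bases that also hold 50 bases after the start, 9 of the 12 shared lower genes had an entry. CCGGAA was in 1 of them (11.1%), against 17.6% of all 27305 promoters and 31.7% of the 8711 promoters of genes in the table. The AP-1 motif TGANTCA, the E-box CACGTG and the sterol element core CACCCCAC were in 0 of the 9. The CArG frame, CC and GG with 6 bases between them, was in 8 (88.9%), against 77.8% of all promoters and 90.7% of those in the table. Both strands were searched, and a match of the letters is a description of the sequence only.

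The other 6 shared lower genes act at the cell surface or on signalling. ITGA2 encodes the integrin chain that binds collagen, and it stood at 707 with AZD8055 and 110.2 with the combination in Hep3B, 436 and 97.2 in Huh7, and 1730.3 and 642 in MHCC97H. NT5E encodes CD73, the surface enzyme that turns AMP into adenosine, and it stood at 642 with AZD8055 and 53.5 with the combination in Hep3B, 330 and 117 in Huh7, and 1472 and 313 in MHCC97H. Both were lower in every line, with limma values of -2.08 (SE 0.38, adjusted p = 0.145) for ITGA2 and -2.43 (SE 0.60, adjusted p = 0.188) for NT5E. PLXNA2, a semaphorin receptor, had 319.8 with AZD8055 and 71.3 with the combination in Hep3B, 223 and 86.1 in Huh7, and 1789 and 837 in MHCC97H. NKD1, which restrains Wnt signalling, had 449.9 with AZD8055 and 149 with the combination in Hep3B, 171 and 40.5 in Huh7, and 92.7 and 33.2 in MHCC97H. UBASH3B, a phosphatase that acts on receptor-linked tyrosine kinases, differed by -1.95, -1.33 and -1.35 in Hep3B, Huh7 and MHCC97H. RASSF9 differed by -3.79, -2.35 and -1.18, from a normalised read count of 372, 149 and 52.6 with AZD8055. The value nearest to 0 in this group was that of PLXNA2 in MHCC97H (-1.10), and that of MMD, the next gene outside it, was -1.04.

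**Figure D2:**
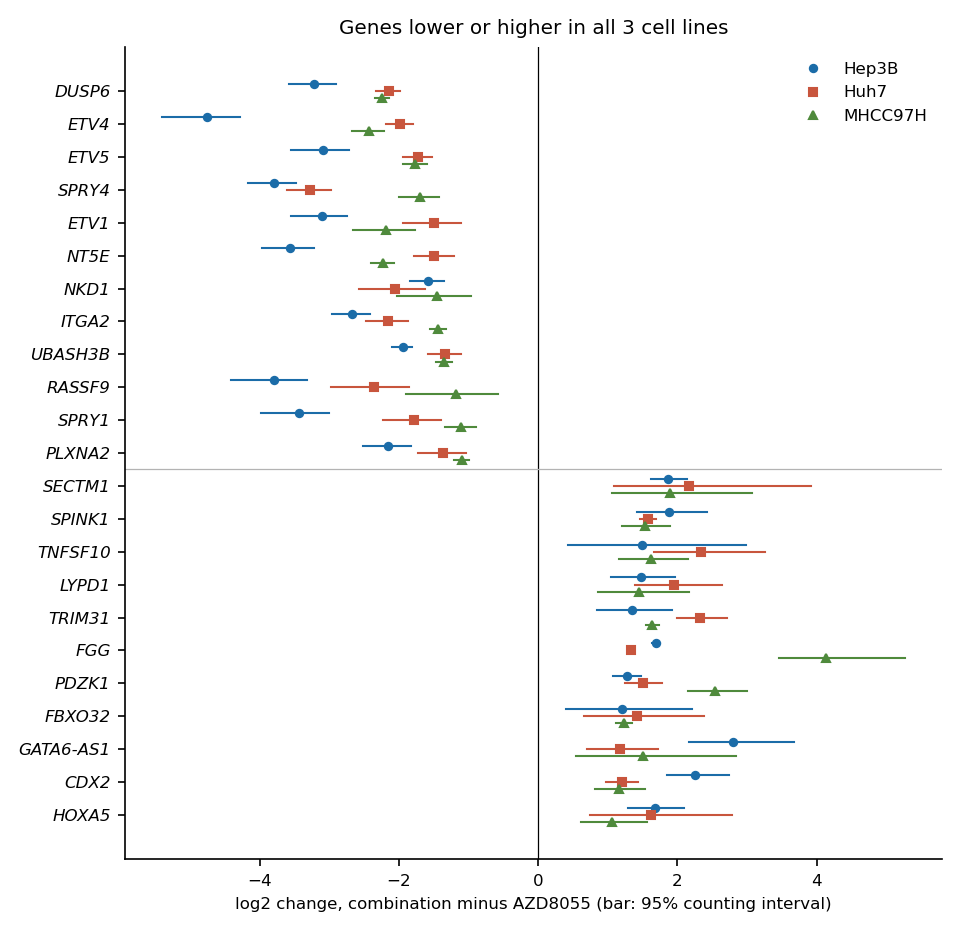
Log2 change of the combination against AZD8055 in Hep3B, Huh7 and MHCC97H for the 12 genes that were lower and 11 of the 12 that were higher by the widest margin in every line, with bars for the 95% counting interval. Every point of the lower set lies at or below -1.10 and every point of the higher set at or above 1.06.

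The ERK-induced genes taken as lists were not all lower. Of the 27 genes listed as ERK pathway outputs, 23 were analysed, and 16 were lower in Hep3B (all genes 5513, 47.7%), 18 in Huh7 (5352, 46.3%) and 20 in MHCC97H (5092, 44.1%). Of these 23, 12 were lower (all genes 16.3%) and 0 higher (23.7%) in all 3 lines. The median changes were -0.76, -0.72 and -1.07, against 0.02, 0.04 and 0.04 over all genes. An unadjusted p under 0.05 was found for 10 of the 23 in the lower direction (all genes 5.19%) and for 0 in the higher (9.30%), and the 10 became 7 without Hep3B, 6 without Huh7, 10 without MHCC97H and 4 with no block for the cell line. EPHA2, a receptor tyrosine kinase and ERK output, had a normalised read count of 2094 with AZD8055 and 1163 with the combination in Hep3B, 1903 and 820.2 in Huh7, and 1572 and 585 in MHCC97H. It was lower in every line, farthest in MHCC97H, and limma gave -1.16 (SE 0.26, adjusted p = 0.169). CCND1, which encodes cyclin D1, differed by -0.83, -0.72 and -0.13 and MYC by -0.92, -0.64 and -0.38, with limma values of -0.56 (SE 0.28, adjusted p = 0.377) and -0.65 (SE 0.30, adjusted p = 0.354).

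DUSP4 and PHLDA1 went apart between the lines. DUSP4, a nuclear ERK phosphatase, stood at 97.3 with AZD8055 and 264 with the combination in Hep3B, 1319 and 1219.5 in Huh7, and 2662 and 959.6 in MHCC97H. PHLDA1, a gene that growth factors induce, stood at 1567 with AZD8055 and 2255 with the combination in Hep3B, 1163 and 1491 in Huh7, and 4226 and 2322 in MHCC97H. Both were lower in MHCC97H (-1.47 and -0.86) and higher in Hep3B (1.43 and 0.52), and over the lines they gave -0.05 and 0.01 in limma.

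Among the 20 feedback inhibitors analysed of 23, 7 were lower (all genes 16.3%) and 7 higher (23.7%) in all 3 lines. The families among these inhibitors differed. The 5 Sprouty and SPRED genes analysed had median changes of -1.42, -1.55 and -0.79, with 4 lower in all 3 lines. SPRY2 was the exception, at 428 with AZD8055 and 159 with the combination in Hep3B, 974 and 331 in Huh7, and 137 and 167 in MHCC97H. Its differences in Hep3B and Huh7 were -1.42 and -1.55, while in MHCC97H it differed by 0.28 with an interval that includes 0 (-0.01 to 0.57). The 10 dual-specificity phosphatases analysed had medians of 1.13, -0.06 and -0.16, with 3 lower and 4 higher in all 3 lines. DUSP8, which acts on the stress kinases JNK and p38, was among the latter and stood at 179 with AZD8055 and 738 with the combination in Hep3B, 214 and 442 in Huh7, and 66.7 and 142 in MHCC97H, with changes of 2.04, 1.04 and 1.07 and 1.38 (SE 0.26, adjusted p = 0.145) in limma.

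The immediate early gene EGR1 was lower in Hep3B and Huh7 and not in MHCC97H, and FOS was lower in Hep3B. EGR1, a zinc finger factor induced within minutes of ERK activation, stood at 1067 with AZD8055 and 16.2 with the combination in Hep3B, 64.8 and 9.47 in Huh7, and 659.8 and 778 in MHCC97H. FOS, a subunit of AP-1, stood at 115 with AZD8055 and 7.29 with the combination in Hep3B, 14.1 and 7.75 in Huh7, and 152 and 197 in MHCC97H. EGR1 differed by -5.96 in Hep3B and -2.65 in Huh7 but by 0.24 (interval 0.11 to 0.37) in MHCC97H, and FOS by -3.81, -0.79 (interval -2.22 to 0.38) and 0.37. Over the 28 transcription factors and immediate early genes analysed of 32, the medians were -0.24, -0.27 and 0.03. In all 3 lines 8 were lower (all genes 16.3%) and 7 higher (23.7%).

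The genes of the cascade itself had medians nearer to 0 than its outputs. PTPN11 had a normalised read count of 2895 with AZD8055 and 3246 with the combination in Hep3B, 5060.2 and 4135 in Huh7, and 3454 and 3553 in MHCC97H, and its changes of 0.17, -0.29 and 0.04 had no common direction. Of the 37 components of the SHP2, RAS and ERK pathway analysed of 38, 3 were lower and 12 higher in all 3 lines. Over all genes these shares were 16.3% and 23.7%, and the medians of the 37 were 0.29, 0.06 and 0.09. MRAS, the RAS protein that joins SHOC2 in activating RAF, stood at 303 with AZD8055 and 1946 with the combination in Hep3B, 286 and 473 in Huh7, and 27.4 and 42.1 in MHCC97H. The counting interval of MRAS in MHCC97H (-0.01 to 1.26) includes 0. SOS1, the exchange factor that loads RAS with GTP, differed by 0.79, 0.38 and 0.79, and the kinase MKNK2, which phosphorylates eIF4E, by 0.92, 0.67 and -0.29. SHC1, an adaptor between receptors and GRB2, went the other way with -1.71, -0.26 and -0.54. MRAS, SOS1 and SHC1 thus kept a direction in every line, with limma values of 1.33 (SE 0.42, adjusted p = 0.242), 0.65 (SE 0.17, adjusted p = 0.188) and -0.84 (SE 0.31, adjusted p = 0.275), and MKNK2 did not.

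Of 58 receptor tyrosine kinases 21 were analysed, with medians of -0.16, -0.23 and -0.10. In all 3 lines 7 were lower (all genes 16.3%) and 3 higher (23.7%). PDGFRB, the receptor for PDGF-B, stood at 462 with AZD8055 and 72.1 with the combination in Hep3B, 500.4 and 172 in Huh7, and 3.51 and 0 in MHCC97H. The MHCC97H libraries held 5 and 0 reads of PDGFRB, a 1.45-fold lower level with 3 reads put in place of 0. The counting interval of PDGFRB there reached up to 0.33 and so includes 0. AXL, the receptor for GAS6, stood at 32.7 with AZD8055 and 15.4 with the combination in Hep3B, 47.4 and 5.16 in Huh7, and 934 and 362 in MHCC97H, and its counting interval in Huh7 ran from -4.70 to -1.99. EPHA1 went the other way, with changes of 0.89, 1.94 and 0.82, though MHCC97H held 2 and 4 reads of it and its counting interval there ran from -1.60 to 4.67. EPHA2 and AXL were lower in every line and PDGFRB, beyond counting error, in Hep3B and Huh7, with adjusted p of 0.169, 0.266 and 0.151 in limma.

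Among 21 ligands of these receptors analysed of 38, 1 was lower (all genes 16.3%) and 4 higher (23.7%) in all 3 lines. Their medians were -0.03, 0.01 and 0.43. PDGFA, a subunit of PDGF, was higher in every line (1.16, 1.65 and 0.88). PDGFB differed by 0.45, -0.79 and 0.96, PGF by 0.37, -0.49 and -1.35 and MST1, which encodes macrophage stimulating protein, by -0.77, 1.48 and 0.45, without a common direction. The MHCC97H value of PGF rests on few reads, with a counting interval from -4.15 to 0.25. Over 32 components of the PI3K and mTOR pathway analysed of 37 the medians were -0.06, -0.04 and 0.0. In all 3 lines 5 were lower and 5 higher (15.6% each, all genes 16.3% and 23.7%). EIF4EBP1, the translation repressor that mTOR phosphorylates, was lower in every line with -0.69, -0.50 and -0.46. SESN1, an inhibitor of mTORC1, differed by 0.24, 1.03 and 0.45, with intervals that include 0 in Hep3B (-0.14 to 0.63) and MHCC97H (-0.05 to 0.97). FNIP2, a partner of folliculin, differed by -0.64, -0.33 and 0.54.

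TSPAN4, which encodes a tetraspanin, had the smallest p of all genes. It had a normalised read count of 681 with AZD8055 and 343 with the combination in Hep3B, 458 and 234 in Huh7, and 385 and 179.6 in MHCC97H. The changes of -0.99, -0.97 and -1.10 gave -1.02 (SE 0.13, unadjusted p = 1.56e-05, adjusted p = 0.121) in limma. FAT1, a large protocadherin, stood at 3339 with AZD8055 and 2037 with the combination in Hep3B, 2097 and 637 in Huh7, and 11539.8 and 5426 in MHCC97H, lower in every line (-0.71, -1.72 and -1.09, adjusted p = 0.145, limma). PKM, the pyruvate kinase of glycolysis, stood at 8036 with AZD8055 and 3866 with the combination in Hep3B, 6337 and 3511 in Huh7, and 31601 and 15582 in MHCC97H. TGFB1, which encodes the cytokine TGF-β1, differed by -0.62, -0.89 and -0.90. PKM and TGFB1 each had an adjusted p of 0.145 in limma.

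Of the higher genes, SLC25A3, the phosphate carrier of mitochondria, stood at 2983 with AZD8055 and 5218 with the combination in Hep3B, 5725 and 9759.6 in Huh7, and 5841 and 9316 in MHCC97H. ELF3, an epithelial ETS factor, stood at 474 with AZD8055 and 816 with the combination in Hep3B, 182 and 361 in Huh7, and 2111 and 4178 in MHCC97H. BMF, a BH3-only protein that promotes apoptosis, stood at 2897 with AZD8055 and 5341 with the combination in Hep3B, 2099.6 and 4383 in Huh7, and 1209 and 2583 in MHCC97H. The 3 genes were higher in every line and shared the smallest adjusted p of 0.121 in limma, with 0.75 (SE 0.10), 0.92 (SE 0.13) and 1.01 (SE 0.15). ALDH1A1, a retinaldehyde dehydrogenase, differed by 1.49, 0.82 and 1.32, and JAK1, the kinase of cytokine receptors, by 0.91, 0.64 and 0.55.

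Other members of the BCL2 family had no common direction. Of 14 analysed of 18, 3 were lower (all genes 16.3%) and 5 higher (23.7%) in all 3 lines, with medians of 0.17, -0.04 and 0.04. BBC3, which encodes PUMA, was higher in every line with 0.79, 0.55 and 0.77 and an adjusted p of 0.346 in limma. BCL2L11, which encodes BIM and is held down by ERK in many cells, stood at 386 with AZD8055 and 519 with the combination in Hep3B, 1004 and 816 in Huh7, and 749 and 1562 in MHCC97H, higher in Hep3B and MHCC97H and lower in Huh7 (-0.30, interval -0.42 to -0.18). BCL2L1, which encodes BCL-XL, stood at 3904 with AZD8055 and 2305 with the combination in Hep3B, 6318 and 5058 in Huh7, and 2010.3 and 1504 in MHCC97H. It was lower in each line, with -0.50 (SE 0.15, adjusted p = 0.229) in limma, opposite to the BH3-only genes BMF and BBC3.

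The 12 genes that were higher in all 3 lines by the widest margin included SECTM1, SPINK1, TNFSF10, LYPD1, TRIM31, FGG, PDZK1, FBXO32, GATA6-AS1, CDX2 and HOXA5. TNFSF10 encodes the death ligand TRAIL and stood at 6.54 with AZD8055 and 20.3 with the combination in Hep3B, 14.1 and 75.7 in Huh7, and 34.4 and 108 in MHCC97H. SPINK1, a trypsin inhibitor secreted by HCC cells, stood at 35.2 with AZD8055 and 132 with the combination in Hep3B, 695 and 2078 in Huh7, and 70.2 and 206 in MHCC97H. SECTM1 stood at 126 with AZD8055 and 464 with the combination in Hep3B, 4.99 and 25.8 in Huh7, and 8.42 and 34.0 in MHCC97H. The counting intervals were wide where few reads stood behind a level, from 0.44 to 2.99 for TNFSF10 in Hep3B and 1.08 to 3.93 for SECTM1 in Huh7, against 1.47 to 1.70 for SPINK1 in Huh7. limma gave 1.82 (SE 0.69, adjusted p = 0.284) for TNFSF10, 1.67 (SE 0.35, adjusted p = 0.161) for SPINK1 and 1.98 (SE 0.46, adjusted p = 0.169) for SECTM1.

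FBXO32, which encodes the ubiquitin ligase atrogin-1 and is induced by FOXO factors, stood at 13.1 with AZD8055 and 31.6 with the combination in Hep3B, 14.1 and 39.6 in Huh7, and 689 and 1624 in MHCC97H. TRIM31, another ubiquitin ligase, stood at 34.4 with AZD8055 and 89.1 with the combination in Hep3B, 64.0 and 325 in Huh7, and 959 and 2989 in MHCC97H. LYPD1, a GPI-linked surface protein, differed by 1.48, 1.96 and 1.45. PDZK1, a scaffold that holds the HDL receptor in the hepatocyte membrane, stood at 229 with AZD8055 and 555 with the combination in Hep3B, 130.5 and 372 in Huh7, and 40.0 and 238 in MHCC97H and had an adjusted p of 0.145 in limma. The value nearest to 0 in this group was that of HOXA5 in MHCC97H (1.06), and that of DUSP8, the next gene outside it, was 1.04. Among the promoters, 9 of these 12 genes had an entry, and CCGGAA and the sterol element core were in 0 of them. LYPD1 alone held TGANTCA and CACGTG (1 of 9, 11.1%, against 7.76% and 7.43% of all promoters and 4.13% and 10.5% of those in the table). The CArG frame was in 7 (77.8%).

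Genes of liver metabolism leaned to higher levels. Of 18 metabolic enzymes and transporters analysed of 41, 0 were lower and 9 higher in all 3 lines (all genes 16.3% and 23.7%), with medians of 0.70, 0.87 and 0.34. GSTA1, a glutathione transferase whose near-identical copies can share its reads, stood at 0.82 with AZD8055 and 7.29 with the combination in Hep3B, 66.5 and 576 in Huh7, and 199 and 796 in MHCC97H. SULT2A1, the sulfotransferase of bile acids and steroids, stood at 50.7 with AZD8055 and 203 with the combination in Hep3B, 97.2 and 497 in Huh7, and 0.7 and 0 in MHCC97H, with 1 and 0 reads in MHCC97H and no fold there. CYP3A5, a drug-metabolising cytochrome, went apart with 1.65 in Hep3B (interval -0.12 to 5.41), 2.58 in Huh7 and -1.01 in MHCC97H.

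Of 33 secreted plasma proteins and apolipoproteins analysed of 45, 5 were lower (all genes 16.3%) and 14 higher (23.7%) in all 3 lines. The medians were 0.30, 0.56 and 0.38. In Hep3B 18 of the 33 were higher, where 52.2% of all genes were. The 3 fibrinogen chains were among the higher. FGG stood at 3089.5 with AZD8055 and 9987 with the combination in Hep3B, 5503 and 13822 in Huh7, and 8.42 and 165 in MHCC97H. FGB stood at 1809 with AZD8055 and 10488 with the combination in Hep3B, 23597 and 45956 in Huh7, and 110.2 and 1226 in MHCC97H. FGA stood at 3576 with AZD8055 and 9841 with the combination in Hep3B, 10432 and 17854 in Huh7, and 82.8 and 483 in MHCC97H. Each chain differed most in MHCC97H, where the level with AZD8055 was lowest, and limma gave 2.39 (SE 0.53, adjusted p = 0.169), 2.32 (SE 0.57, adjusted p = 0.187) and 1.59 (SE 0.39, adjusted p = 0.188). SERPINC1, which encodes antithrombin, differed by 2.81 in Hep3B and 2.19 in Huh7 and had 0 reads in both MHCC97H libraries.

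Transcription factors of the liver had no common direction as a list. Of 26 liver factors and nuclear receptors analysed of 29, 4 were lower (15.4%) and 8 higher (30.8%) in all 3 lines. Over all genes these shares were 16.3% and 23.7%. In Hep3B and in MHCC97H 14 of the 26 were higher, against 52.2% and 55.2% of all genes. GATA6, ONECUT1, NR5A2 and NR0B2 were named as the members with the largest mean absolute change. GATA6, a factor of the early liver bud and gut, stood at 214 with AZD8055 and 1053 with the combination in Hep3B, 1013 and 1386 in Huh7, and 256 and 440.1 in MHCC97H. Its neighbour GATA6-AS1 stood at 14.7 with AZD8055 and 109 with the combination in Hep3B, 40.7 and 93.8 in Huh7, and 7.02 and 21.8 in MHCC97H, and whether reads were counted by strand is not given in the sources used here. ONECUT1, also named HNF6, had 326 with AZD8055 and 585 with the combination in Hep3B, 289 and 742 in Huh7, and 11.2 and 22.6 in MHCC97H and an adjusted p of 0.145 in limma. NR5A2, also named LRH-1, differed by 1.71, 0.55 and 1.14, the last from 6 and 13 reads with an interval of -0.18 to 3.00. NR0B2, the bile acid induced corepressor SHP (not the phosphatase), differed by -0.67 in Hep3B and -1.22 in Huh7, with 1 and 0 reads in MHCC97H.

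CDX2, the homeobox factor of the intestine, stood at 41.7 with AZD8055 and 203 with the combination in Hep3B, 185 and 425 in Huh7, and 71.6 and 162 in MHCC97H. HOXA5 stood at 57.3 with AZD8055 and 185 with the combination in Hep3B, 9.97 and 32.7 in Huh7, and 42.1 and 89.0 in MHCC97H. Both were higher in every line, with 1.54 (SE 0.33, adjusted p = 0.161) and 1.45 (SE 0.30, adjusted p = 0.161) in limma. All 7 protein-coding HOX genes of the table were then looked at, a set chosen after the values had been seen. Of these, 5 were higher (all genes 23.7%) and 0 lower (16.3%) in all 3 lines, with medians of 1.31, 0.35 and 0.57.

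The cell cycle genes separated the lines. All 40 mitosis genes analysed were lower in Hep3B and in Huh7 (all genes 47.7% and 46.3%), with medians of -0.56 and -0.66. In MHCC97H 36 of them were higher (all genes 6379, 55.2%), with a median of 0.23. This pattern of lower in Hep3B and Huh7 and higher in MHCC97H was met by 36 of the 40 (90%), against 1395 of all genes (12.1%). ASPM, which organises spindle poles, stood at 3034 with AZD8055 and 1473 with the combination in Hep3B, 3063 and 1046 in Huh7, and 1910 and 1968 in MHCC97H. CENPE, a kinetochore motor, stood at 958 with AZD8055 and 584 with the combination in Hep3B, 974 and 409 in Huh7, and 597 and 645 in MHCC97H. PTTG1, which encodes securin, differed by -1.01, -0.87 and 0.06 and CCNA2, which encodes cyclin A2, by -0.66, -0.88 and 0.37. An unadjusted p under 0.05 was found for 10 of the 40 in the lower direction (all genes 599, 5.19%) and for 0 in the higher (9.30%). In the lower direction 39 had one without MHCC97H (all genes 1073), 1 without Hep3B (350) and 0 without Huh7 (289).

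DNA replication genes followed the same pattern with smaller medians. Of 44 analysed, 42 were lower in Hep3B (all genes 47.7%), 40 in Huh7 (46.3%) and 11 in MHCC97H (44.1%). The medians were -0.39, -0.36 and 0.08, and 29 (65.9%, all genes 12.1%) were lower in Hep3B and Huh7 and higher in MHCC97H. RRM2, a subunit of ribonucleotide reductase, stood at 1486 with AZD8055 and 726 with the combination in Hep3B, 2257 and 1068 in Huh7, and 275 and 315 in MHCC97H. CDC6, which loads the MCM helicase, stood at 1447 with AZD8055 and 730.2 with the combination in Hep3B, 948 and 455 in Huh7, and 274 and 239 in MHCC97H. MCM10 differed by -0.67, -1.05 and -0.41 and CDC45 by -0.90, -0.87 and -0.32, so that CDC6, MCM10 and CDC45 were lower in every line. The interval of CDC6 in MHCC97H (-0.42 to 0.03) and that of CDC45 (-0.71 to 0.06) include 0.

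The regulators of G1 were mixed, with 6 of 30 lower (all genes 16.3%) and 6 higher (23.7%) in all 3 lines. CDK6, the partner of cyclin D, stood at 3079.7 with AZD8055 and 1449.8 with the combination in Hep3B, 1196 and 473 in Huh7, and 2083 and 1782 in MHCC97H. BTG2, an antiproliferative gene, stood at 229 with AZD8055 and 970 with the combination in Hep3B, 375 and 763 in Huh7, and 89.2 and 243 in MHCC97H. CDKN1C, which encodes the CDK inhibitor p57, stood at 196 with AZD8055 and 799 with the combination in Hep3B, 14.1 and 33.6 in Huh7, and 84.2 and 157 in MHCC97H. CDK6 was lower and BTG2 and CDKN1C were higher in every line, and limma gave -0.88 (SE 0.26, adjusted p = 0.223), 1.51 (SE 0.35, adjusted p = 0.169) and 1.37 (SE 0.63, adjusted p = 0.358). CDKN2B, which encodes p15, differed by -1.44, 0.20 and 0.67.

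Sterol synthesis genes also set MHCC97H apart from the other lines. Of 36 genes of sterol and fatty acid synthesis, 31 were lower in Hep3B (all genes 47.7%) and 23 in Huh7 (46.3%), with medians of -0.39 and -0.09. In MHCC97H 34 were higher (all genes 55.2%), 21 of them at least 2-fold (2.81%), with a median of 1.15. The 21 enzymes of the sterol pathway were all higher in MHCC97H, with a median of 1.37 against -0.35 in Hep3B and 0.01 in Huh7. The 9 fatty acid genes had medians of -0.37, -0.36 and 0.35. INSIG1, which holds SREBP in the endoplasmic reticulum and is itself an SREBP target, stood at 663 with AZD8055 and 372 with the combination in Hep3B, 1312 and 827 in Huh7, and 246 and 1314 in MHCC97H. FDFT1, which encodes squalene synthase, stood at 2504 with AZD8055 and 968 with the combination in Hep3B, 2368 and 2143 in Huh7, and 1767 and 3922 in MHCC97H. STARD4, a sterol carrier, stood at 775 with AZD8055 and 417 with the combination in Hep3B, 756 and 598 in Huh7, and 75.8 and 269 in MHCC97H. In MHCC97H the counting intervals ran from 2.25 to 2.59, 1.08 to 1.22 and 1.51 to 2.15, and over the lines the limma values were 0.31, -0.12 and 0.19 with SE of 0.57, 0.41 and 0.40.

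**Figure D3:**
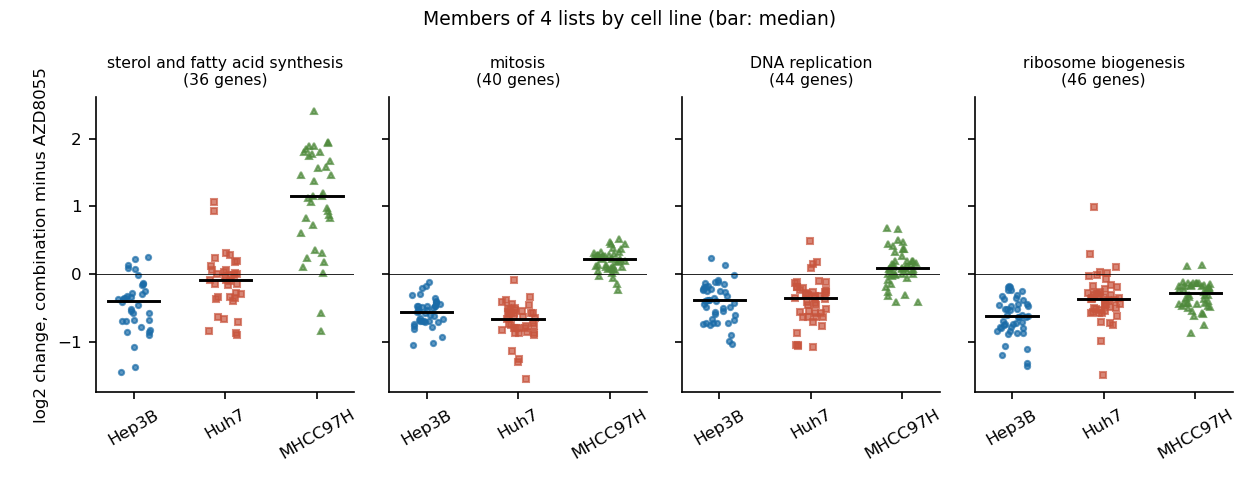
Log2 change of the combination against AZD8055 for each gene of 4 lists in Hep3B, Huh7 and MHCC97H, with the median of each list and line marked. Mitosis genes have medians of -0.56, -0.66 and 0.23 and sterol and fatty acid genes of -0.39, -0.09 and 1.15. The medians of ribosome biogenesis genes are below 0 in every line.

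Most ribosome biogenesis genes were lower in every line. Of 46 genes, 46 were lower in Hep3B (all genes 47.7%), 41 in Huh7 (46.3%) and 44 in MHCC97H (44.1%). The medians were -0.63, -0.37 and -0.28, and 41 were lower in all 3 lines (all genes 16.3%). An unadjusted p under 0.05 in the lower direction was found for 23 (all genes 599, 5.19%) and in the higher direction for 0 (9.30%). The 23 became 9 without Hep3B (all genes 350), 6 without Huh7 (289) and 28 without MHCC97H (1073). BOP1, which acts in 60S subunit assembly, stood at 973 with AZD8055 and 392 with the combination in Hep3B, 334 and 202 in Huh7, and 970.1 and 644 in MHCC97H. LYAR, a nucleolar protein, differed by -1.36, -0.70 and -0.35, and NOP16 by -1.19, -0.50 and -0.43. PPAN had few reads and differed by -0.19, -1.50 and -0.88, with an interval of -0.80 to 0.41 in Hep3B. The limma value of BOP1 was -0.87 (SE 0.25, adjusted p = 0.223).

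Nucleotide synthesis genes leaned the same way. All 23 genes of nucleotide synthesis were analysed, 13 of them lower (all genes 16.3%) and 0 higher (23.7%) in all 3 lines. The medians were -0.54, -0.31 and -0.21. NME1, a nucleoside diphosphate kinase, stood at 568 with AZD8055 and 239 with the combination in Hep3B, 489.6 and 199.7 in Huh7, and 416 and 238 in MHCC97H. PPAT, which begins purine synthesis, stood at 970.1 with AZD8055 and 446 with the combination in Hep3B, 529 and 295 in Huh7, and 326 and 211 in MHCC97H. CTPS1, the CTP synthase, differed by -0.75, -0.71 and -0.72 and DHODH, of pyrimidine synthesis, by -0.98, -0.57 and -0.58. All 4 were lower in each line, with adjusted p of 0.161, 0.201, 0.31 and 0.188 in limma.

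Of 20 glycolysis genes analysed of 22, 11 were lower (all genes 16.3%) and 1 higher (23.7%) in all 3 lines. The medians were -0.48, -0.28 and -0.18. PKM was lower throughout, whereas HK2, a hexokinase, was lower in Hep3B and Huh7 and higher in MHCC97H (-1.58, -0.36 and 1.47). ALDOC differed by -1.01, 0.09 and 1.12 and ENO2 by 1.13, 0.25 and -0.69. ATF4 targets, with amino acid synthesis and tRNA synthetases, had 14 of 37 lower (all genes 16.3%) and 3 higher (23.7%) in all 3 lines. Their medians were -0.38, -0.18 and -0.07. SLC1A5, a glutamine transporter, stood at 1543 with AZD8055 and 699 with the combination in Hep3B, 461 and 177 in Huh7, and 3003 and 2780 in MHCC97H. STC2, a secreted glycoprotein, stood at 509 with AZD8055 and 198 with the combination in Hep3B, 143 and 69.7 in Huh7, and 437 and 279 in MHCC97H. DDIT4, an mTORC1 inhibitor induced by stress, was lower in Hep3B (-2.30), differed by -0.02 in Huh7 (interval -0.68 to 0.64) and was higher in MHCC97H (1.81). PYCR1, of proline synthesis, differed by -0.94 in Hep3B and -0.41 in Huh7 and had 2 and 0 reads in MHCC97H.

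Of 25 chaperones of the endoplasmic reticulum and genes of the unfolded protein response, 14 were lower and 2 higher in all 3 lines. Over all genes these shares were 16.3% and 23.7%, and the medians of the 25 were -0.68, -0.45 and -0.04. XBP1, a transcription factor of that response, stood at 4375 with AZD8055 and 2020.3 with the combination in Hep3B, 3637 and 2679 in Huh7, and 1252 and 825 in MHCC97H. SDF2L1 differed by -1.35, -1.14 and -0.49 and the chaperone HYOU1 by -0.80, -0.75 and -0.33. CREB3L3, a liver factor activated at the same membrane, was higher in every line (1.36, 0.74 and 0.74).

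The same compound was also given without AZD8055, which allows its change to be set side by side in both settings. These differences share no library, but the dose of compound #57 alone is not given in the sources used here. Across the 11548 genes, the changes with and without AZD8055 correlated with Pearson's r of 0.76 in Hep3B, 0.60 in Huh7 and 0.57 in MHCC97H, and 74.7%, 69.4% and 68.4% of genes had the same sign. Genes at least 2-fold lower with compound #57 alone were taken with at least 100 reads in the higher of the AZD8055 and combination libraries. Of these, 361 of 366 in Hep3B (all genes 47.7%), 122 of 126 in Huh7 (46.3%) and 53 of 53 in MHCC97H (44.1%) were also lower on top of AZD8055. Their medians were -1.25, -1.28 and -1.30 alone and -0.92, -1.02 and -1.11 on top. These genes were picked by their change alone, which fixes the medians alone at -1 or lower. A weaker change on top therefore cannot be read from the medians. Of genes at least 2-fold higher alone by the same limit on reads, 768 of 797, 345 of 370 and 167 of 178 were also higher on top. Over all genes 52.2%, 53.5% and 55.2% were higher on top. In the limma contrast of the compound with against without AZD8055, 0 genes (0%) passed an adjusted p of 0.05, with a smallest adjusted p of 1.0. At an unadjusted p under 0.05, 113 genes were higher with AZD8055 (0.979%) and 65 lower (0.563%), and voom found 218 such genes and no call. Without Hep3B 114 genes had such a p, without Huh7 79 and without MHCC97H 409.

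DUSP6, SPRY4 and ETV4 were lower in both settings. DUSP6 differed by -6.21, -2.16 and -1.72 without AZD8055 in Hep3B, Huh7 and MHCC97H, and by -3.21, -2.15 and -2.24 on top of it. SPRY4 differed by -7.51, -3.54 and -0.84 without and -3.79, -3.27 and -1.70 with AZD8055, and ETV4 by -5.33, -2.57 and -1.86 and -4.75, -1.99 and -2.43. The SPRY4 value in Hep3B without AZD8055 rests on 3 reads with compound #57. In Hep3B the level of DUSP6 was 924 untreated, 11.5 with compound #57, 609 with AZD8055 and 64.8 with the combination, so that the combination lay above the compound alone. The combination also lay above the compound alone in Hep3B for SPRY4 (62.4 against 1.92) and ETV4 (23.5 against 8.96). The differences between the settings were 0.83 (SE 0.99), 1.04 (SE 1.54) and 0.20 (SE 0.92) in limma, each within 2 SE of 0.

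Cytosolic ribosomal proteins differed between the settings in a common direction. Their share of all reads was 3.43% in untreated cells and 2.35% with compound #57 in Hep3B, 3.12% and 2.54% in Huh7, and 3.00% and 2.53% in MHCC97H. It was 4.16% with AZD8055 and 3.97% with the combination in Hep3B, 3.67% and 3.90% in Huh7, and 3.14% and 3.23% in MHCC97H. The medians of the 76 genes were -0.53, -0.28 and -0.26 without and -0.06, 0.08 and 0.02 with AZD8055, the last being -0.02 with libraries centred. For all 76 the change was higher with AZD8055 (5512 of all genes, 47.7%), by a median of 0.37. In this direction 25 of them had an unadjusted p under 0.05 in limma (all genes 113, 0.979%). The same 76 of 76 were counted under each setting run except the 75% of genes with the highest mean, which holds 75 of them and gave 75 of 75. In Hep3B 26 of the 76 were lower alone and higher on top (all genes 1530, 13.2%), in Huh7 52 (1761, 15.2%) and in MHCC97H 38 (1398, 12.1%).

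RPL15 stood at 4656 untreated and 3517 with compound #57 in Hep3B, 7951 and 6517 in Huh7 and 2321 and 2095 in MHCC97H. It stood at 5606 with AZD8055 and 5805 with the combination in Hep3B, 9466 and 12111 in Huh7, and 2781 and 3137 in MHCC97H. RPS9 differed by -0.40, -0.09 and -0.26 without and 0.07, 0.34 and 0.23 with AZD8055, RPS10 by -0.84, -0.84 and -0.69 and -0.27, -0.33 and -0.30, and RPS29 by -0.62, 0.19 and -0.18 and -0.34, 0.44 and -0.18. Reads of ribosomal protein genes can be shared with their many processed copies, and how the authors counted such reads is not given in the sources used here. The differences between the settings were 0.47 for RPL15 (unadjusted p = 0.0141) and 0.47 for RPS9 (unadjusted p = 0.0196), both with an adjusted p of 1.0 in limma.

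Sterol and fatty acid genes differed in the other direction in Hep3B and Huh7. Their medians were 0.56, 0.45 and 1.09 without AZD8055 and -0.39, -0.09 and 1.15 on top of it. For all 36 the limma contrast was lower with AZD8055 (6036 of all genes, 52.3%), by a median of -0.48. The count was 34 of 36 without Huh7 and 30 of 36 without Hep3B, and the median was -0.21 without Hep3B and -0.83 without MHCC97H. In Hep3B 24 of the 36 (66.7%) were higher alone and lower on top (all genes 1386, 12%) and in Huh7 21 (58.3%, all genes 1758, 15.2%). INSIG1 differed by 0.48, 0.26 and 1.96 without and -0.83, -0.67 and 2.41 with AZD8055, STARD4 by 0.77, 0.22 and 0.84 and -0.89, -0.34 and 1.81, and FDFT1 by less than 0.01 in Hep3B, 0.35 and 1.07 without and -1.37, -0.14 and 1.15 with AZD8055. In MHCC97H the 3 genes were thus higher in both settings, and more so with AZD8055.

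**Figure D4:**
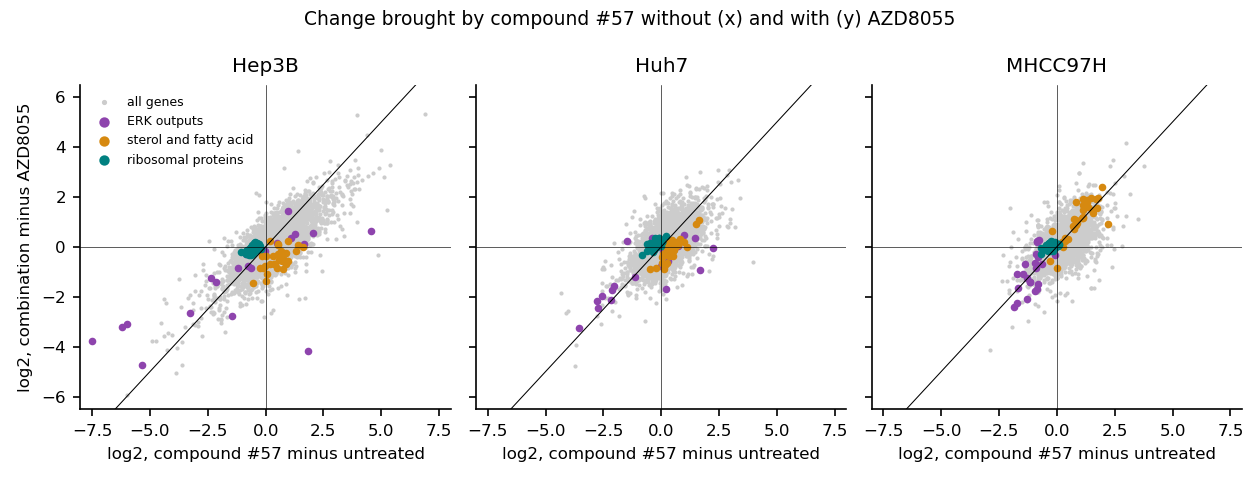
Log2 change brought by compound #57 without AZD8055 (x axis) and on top of AZD8055 (y axis) for every gene in each cell line. ERK outputs, sterol and fatty acid genes and ribosomal proteins are coloured and the diagonal is drawn. Ribosomal proteins lie mostly above the diagonal and, in Hep3B and Huh7, sterol and fatty acid genes mostly below it.

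FAT1, BMF, SLC25A3 and TSPAN4 were named for their small p against AZD8055, which is part of the contrast between the settings, so their values in both settings are a description. FAT1 differed by -0.68, 0.0 and -0.15 without and -0.71, -1.72 and -1.09 with AZD8055. BMF was higher in both settings, by 1.35, 1.79 and 1.94 without and 0.88, 1.06 and 1.10 with AZD8055. SLC25A3 was higher by 0.39, 0.45 and 0.26 and 0.81, 0.77 and 0.67, and TSPAN4 differed by -0.45, -0.70 and -0.64 and -0.99, -0.97 and -1.10. The adjusted p of the contrast was 1.0 in limma for all 4. Among 21 targets of the YAP and TEAD factors, 19 were lower with AZD8055 than without it in this contrast (6036 of all genes, 52.3%), and 0 of the 21 had an unadjusted p under 0.05. CYR61 (CCN1), one of them, differed by 1.28, 0.88 and 0.69 without and -1.0, -0.62 and 1.25 with AZD8055, and CTGF (CCN2) by 0.10, -0.94 and 0.07 and -1.88, -0.77 and 1.09. In MHCC97H the changes of both were thus higher with AZD8055 than without it, as was that of CTGF in Huh7.

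**Figure D5:**
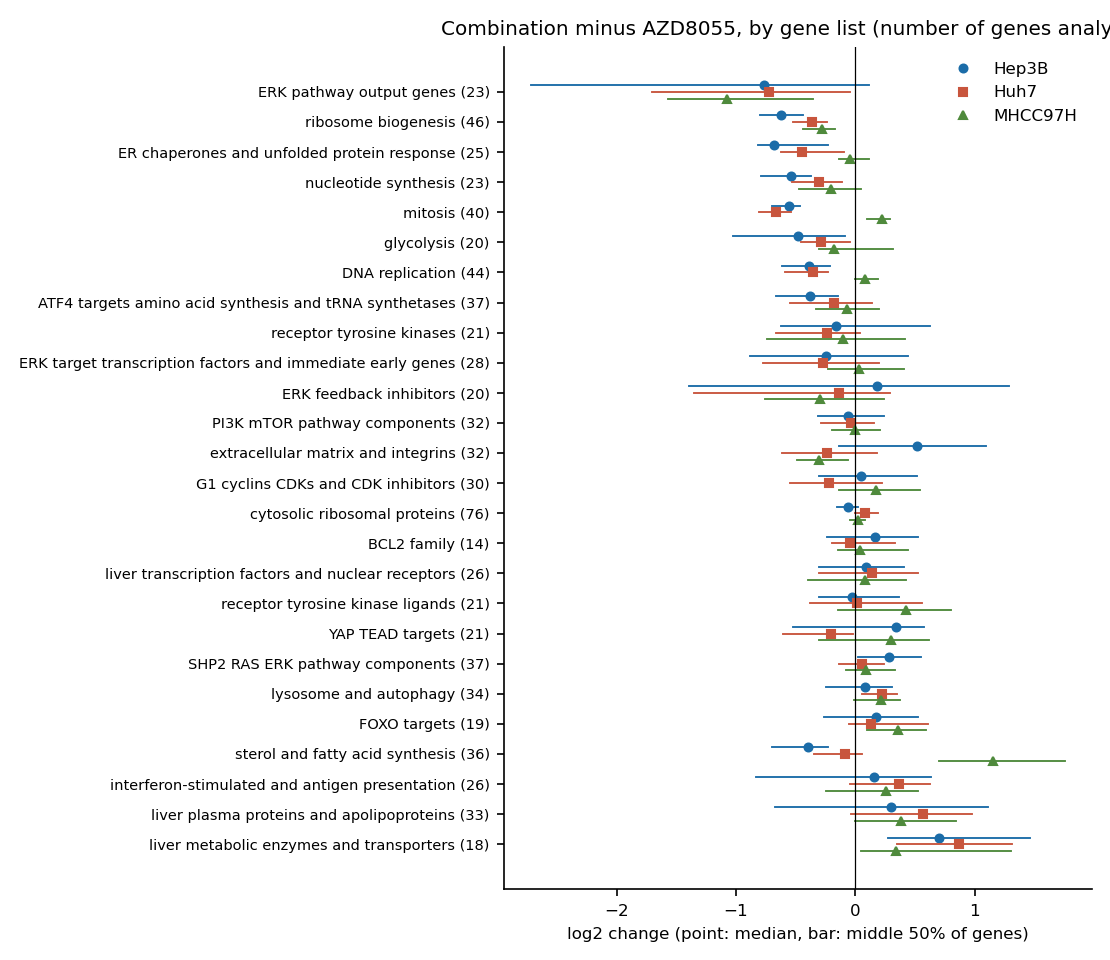
Median log2 change of the combination against AZD8055 (point) and the middle 50% of genes (bar) for each gene list in Hep3B, Huh7 and MHCC97H, with the number of genes analysed. ERK outputs, ribosome biogenesis and nucleotide synthesis have medians below 0 in all 3 lines, and liver enzymes, plasma proteins and FOXO targets above 0.

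FOXO targets, which AKT holds down through FOXO, had 0 of 19 lower (all genes 16.3%) and 8 higher (23.7%) in all 3 lines. Their medians were 0.17, 0.13 and 0.35. CCNG2, which encodes cyclin G2, stood at 364 with AZD8055 and 545 with the combination in Hep3B, 663 and 1022 in Huh7, and 613 and 919.9 in MHCC97H. TXNIP, an inhibitor of thioredoxin and glucose uptake, stood at 5489 with AZD8055 and 2078 with the combination in Hep3B, 464 and 1642 in Huh7, and 364 and 693 in MHCC97H, lower in Hep3B and higher in the others. KLF15 differed by -0.86 and -0.90 in Hep3B and Huh7, with 1 and 3 reads in MHCC97H. Lysosome and autophagy genes had 1 of 34 lower (all genes 16.3%) and 15 higher (23.7%) in all 3 lines, with medians of 0.08, 0.23 and 0.21. GABARAPL1, an ATG8 family protein of autophagosomes, differed by 1.17, 0.46 and 0.98, NPC2, a lysosomal cholesterol carrier, by 0.79, 0.76 and 0.22, the sialidase NEU1 by -0.17, 0.51 and 1.31 and WIPI1 by -1.23, -0.36 and 0.38.

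Of 26 interferon-stimulated and antigen presentation genes analysed of 45, 5 were lower (all genes 16.3%) and 11 higher (23.7%) in all 3 lines. The medians were 0.15, 0.37 and 0.25. TAP1, the peptide transporter of MHC class I loading, stood at 101 with AZD8055 and 318 with the combination in Hep3B, 49.0 and 88.7 in Huh7, and 328 and 438 in MHCC97H. IFIT3 differed by 0.81, 1.36 and 0.83, IFI6 by -2.53, 0.32 and 0.88 and OAS1 by -1.55, 0.73 and -0.63. OAS1 had 4 reads in the Hep3B combination library. Counting intervals included 0 for IFIT3 in Hep3B (-0.16 to 1.97) and for OAS1 in Huh7 (-0.63 to 2.41). Those of IFI6 in Huh7 (-0.80 to 1.53) and MHCC97H (-0.24 to 2.26) also did. Of 32 matrix and integrin genes, 6 were lower (all genes 16.3%) and 5 higher (23.7%) in all 3 lines. LOX, which crosslinks collagen, stood at 772 with AZD8055 and 46.2 with the combination in Hep3B, 281 and 122 in Huh7, and 19.6 and 17.0 in MHCC97H. CDH2, which encodes N-cadherin, stood at 1076 with AZD8055 and 4896 with the combination in Hep3B, 3992 and 6109.7 in Huh7, and 1544 and 2470.1 in MHCC97H and was higher in every line, and COL6A1 differed by 1.87, 1.38 and -0.68.

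Hep3B had the largest single changes. MDGA1, a GPI-linked adhesion protein, stood at 11.4 with AZD8055 and 495 with the combination (5.32, interval 4.68 to 6.31). RASSF5, a RAS-binding adaptor, stood at 24.5 and 564, with changes of 4.47, 1.62 and 0.09 across the lines. BAAT, which conjugates bile acids, differed by 3.46, 0.70 and 1.59 and TMOD1, which caps actin filaments, by 3.42, 0.92 and 0.27. NPPB, which encodes the natriuretic peptide BNP, differed by 3.28 in Hep3B and -0.48 in Huh7. Lowest against AZD8055 in Hep3B, among genes with at least 100 reads in the higher library, were EGR1 (-5.96), CP (-5.06), ETV4 (-4.75), LOX (-4.03) and FOS (-3.81).

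NTS, which encodes neurotensin, stood at 287 with AZD8055 and 18.1 with the combination in Huh7 and at 5404 and 399.5 in Hep3B, and had 1 and 2 reads in MHCC97H. AIM1 differed by -1.86, -3.11 and -0.27, and ADAM28, a surface protease, by -2.78 in Huh7 and 0.24 in MHCC97H. In Hep3B ADAM28 had 20 and 0 reads, a level 6.73-fold lower with 3 reads put in place of 0. The counting interval there ended at -2.32. Higher in Huh7 were GSTA1 (3.10), MYO15B (2.68), CYP3A5 (2.58), CFI (2.52), which encodes complement factor I, and SOCS2 (2.44), a brake on growth hormone signalling that was also higher in Hep3B (2.78) and MHCC97H (1.04).

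In MHCC97H, CLDN2, a tight junction claudin, stood at 289.9 with AZD8055 and 15.4 with the combination (-4.15), and VCAN, which encodes versican, at 1564 and 166 (-3.23). SUSD2 was lower there (-2.60) and was 0.77 in Hep3B and 0.31 in Huh7. Beside FGG and FGB, the highest against AZD8055 in MHCC97H by the same limit on reads were IGFBP3 (3.22), the chemokine CCL20 (2.94) and SEPP1 (SELENOP, 2.85), the selenium carrier of plasma.

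Genes of opposite direction in MHCC97H and in both other lines included CP, IGFBP3 and GJA1. Of all genes, 1395 (12.1%) were lower in Hep3B and Huh7 and higher in MHCC97H, and 1197 (10.4%) the reverse. Apart from CCL20, those named here were the 5 of each direction with the widest margin. CP, which encodes the copper oxidase ceruloplasmin, stood at 2027 with AZD8055 and 60.0 with the combination in Hep3B, 1145 and 248 in Huh7, and 1572 and 6088 in MHCC97H. IGFBP3, a carrier of insulin-like growth factors, stood at 649 with AZD8055 and 118 with the combination in Hep3B, 286 and 129 in Huh7, and 21.1 and 205 in MHCC97H. GJA1, which encodes connexin 43, stood at 1779.9 with AZD8055 and 720.4 with the combination in Hep3B, 10018 and 4236 in Huh7, and 33.7 and 106 in MHCC97H. Each was lower in Hep3B and Huh7 and higher in MHCC97H, as were ANK2 (-0.86, -1.32 and 1.0) and HIST1H1C (-1.33, -1.33 and 0.97), a histone gene whose transcripts mostly lack the poly(A) tail used for the libraries. CCL20 had the same pattern, with -2.43, -0.58 and 2.94. The reverse was seen for the actin bundler FSCN1 (1.94, 0.90 and -0.91), HOMER3 (0.91, 0.81 and -1.22), LETM2 (1.13, 0.78 and -1.02), the peptide transporter SLC15A1 (2.13, 2.59 and -0.75) and KIAA0895L (0.74, 1.25 and -0.75). Without AZD8055, CP differed by -3.89, -2.01 and 1.51 and IGFBP3 by -2.58, 0.20 and 2.29 with compound #57, so that the lines differed in sign for both in that setting too.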

How the data were processed

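RNA of Hep3B, Huh7 and MHCC97H cells was sequenced from poly(A)+ stranded libraries in 12 samples, with 1 library per cell line and treatment. The authors deposited 1 log2 value per gene and library, with hg38 named as the genome build, while the aligner, the read counting and the normalisation are not given in the sources used here. Within each library, the values taken off the log scale were all (100%) multiples of the value of 1 read (tolerance 0.1 reads), and they were read as log2 values of scaled reads (10000000 a library) with about 1 added. A gene with 0 reads stands at 0.001. The libraries compared held 11619304 to 14246335 reads, of which the lowest share in the table over all libraries was 98.6%. Of the 11548 genes, whose lowest mean log2 value was 4.65, 222 had 0 reads in at least 1 of the libraries compared, 18 had names turned into dates and stayed in the tests unnamed, and 4 names occurred on 2 lines.

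limma 3.58.1 (lmFit, eBayes with trend, R 4.3.3) was fitted to the deposited log2 values of all 12 libraries, with a term for treatment and a block for the cell line. A pair is made of libraries from cells of the same line, which the labels give. In this fit the SE and p-values rest on the spread between the 3 cell lines pooled over all 12 libraries, untreated and single-agent ones included. They are therefore no direct measure of how far the 3 lines differed in the change given here. The changes of CTPS1 had a standard deviation of 0.02 over the lines and an SE of 0.30. Those of ETV4 had 1.48 and 0.65. The p-values were adjusted by Benjamini-Hochberg over all genes, with 0.05 as the threshold. A change on the log2 scale understates that of genes with few reads. Within a line no test was made, and a fold against a library with 0 reads was taken with 3 reads in its place, which is no confidence limit. Promoters were RefSeq sequences of GRCh38.p14 and gene positions came from GENCODE 44, both matched by symbol. The calculations were tested on simulated data. The other steps ran in Python 3.11.15 (matplotlib 3.10.9, numpy 2.4.6, pandas 2.3.3, scipy 1.17.1).

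The 26 gene lists and the rules for named genes were chosen with earlier results of these data known. Named were the 12 lower and the 12 higher genes whose least change over the 3 lines was largest, at 20 reads or more in the higher library of each pair, and the 5 of each direction with the largest change in each line (at least 100 reads). Also named were the 5 of each direction that opposed MHCC97H to both other lines, the 5 of each direction with the smallest p, a fixed set of ERK-related genes, and up to 4 members of each list with the largest mean absolute change. A few genes of these rules are not reported here. The HOX genes were named after their values had been seen. Alternatives tried were 10 reads added before the log, only genes in the upper 75% by mean, libraries centred on their medians, each cell line left out in turn, no cell line term, eBayes without trend, voom on the whole reads, and only the 6 libraries compared.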

Additional observations from a re-analysis of the deposited data

Results flagged for a closer look

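The results given here were picked out because every sample of Hep3B and Huh7 moved 1 way and the sample of MHCC97H the opposite way. Over all genes this split was common, with 1395 higher in MHCC97H alone (12.1%) and 1197 lower in MHCC97H alone (10.4%). The difference between the lines was not tested, since each line has 1 pair of libraries, and MHCC97H was exposed for 24 h and the others for 48 h, so that line and time cannot be told apart. The log2 change of the combination against AZD8055 in MHCC97H was 1.95 for CP, 3.22 for IGFBP3, 1.62 for GJA1, 0.97 for HIST1H1C and 1.0 for ANK2, all lower in Hep3B and Huh7. It was -0.91 for FSCN1, -1.22 for HOMER3, -1.02 for LETM2, -0.75 for SLC15A1 and -0.75 for KIAA0895L, all higher in Hep3B and Huh7. The median change of DNA replication genes was 0.084 in MHCC97H, against -0.39 in Hep3B and -0.36 in Huh7. That of mitosis genes was 0.23, against -0.56 and -0.66, and that of sterol and fatty acid genes 1.15, against -0.39 and -0.09.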

How the results depend on the processing

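The 3 cell lines are the only replicates, with 1 library per condition and 2 exposure times, so the comparison has little power for single genes. The number of genes past the adjusted threshold was 0 to 3 with a line left out and 0 under all other alternatives, and the 3 called without MHCC97H were ITGA2, ATP2B2 and TACC1. Genes at an unadjusted p under 0.05 numbered 1673 with the pairing by cell line and 113 with no block for it, and 838 to 2380 with a line left out. For compound #57 with against without AZD8055, the 178 such genes became 2 without the block and 79 to 409 with a line left out.

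Among the 75% of genes with the highest mean, which tests fewer genes, at least 2-fold lower and higher were 211 and 337 in Hep3B, 118 and 160 in Huh7, and 45 and 174 in MHCC97H, and in all 3 lines 12 and 11. With 10 added, MHCC97H had 74 lower and 206 higher and all 3 lines had 11 higher, and with libraries centred 17 were higher in all 3. With a line left out, genes lower in every remaining line numbered 2780 to 3303, those at least 2-fold lower 29 to 87 and those at least 2-fold higher 53 to 137, since fewer lines had to share the direction. The median of ERK outputs became -1.34, -1.64 and -1.43 in Hep3B, Huh7 and MHCC97H among the 75% of genes with the highest mean and -0.42 in Huh7 with 10 added. The limma change reversed for PTPN11 without Huh7, with -0.13 to 0.10 over the lines left out, for DUSP4 without MHCC97H (-0.79 to 0.66), for PHLDA1 without Hep3B and without Huh7 (-0.25 to 0.44), and for PHLDA1 with libraries centred (-0.033). The cause was not tested. Of the values for single genes and lists 16 moved, and 6 list medians within 0.05 of 0 changed sign, 5 of them with libraries centred.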
